A study of Arabidopsis thaliana with 18 samples.

Results

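The subject of these results is a set of 29 Arabidopsis thaliana genes, out of 37037 in the deposited table, whose transcripts were more abundant in phosphate-starved roots than in fed roots and more abundant still after either isomer of the cytokinin zeatin was added. The members were chosen by measured values, namely CPM (the count of a gene per 1000000 counted reads of its library) in 4 of the 6 groups of the study. A gene had to reach a group mean of 5 CPM in some group, a difference in log2(mean CPM + 1) of at least 1 between untreated low and full phosphate, and differences of at least 0.58 for trans-zeatin and for cis-zeatin against untreated roots in low phosphate. Of the 15841 genes at the floor of 5 CPM, 550 passed the starvation threshold. Of these, 186 were lower by 0.58 or more under both zeatins, 260 stayed within that distance under both, and 29 met the whole rule.

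RNA-seq of poly(A) RNA was made from roots of wild-type seedlings of the Columbia ecotype (Col-0), with no transgene or mutant allele in any group. Seedlings had 8 days of Murashige and Skoog medium with either 625 µM phosphate, called full here, or 5 µM, called low here and described in the labels as lacking phosphate. At each phosphate level 3 libraries came from untreated plants, 3 from plants given 5 µM trans-zeatin for 8 h and 3 from plants given 5 µM cis-zeatin for the same time. The labels do not say whether the 3 libraries of a group are separate cultures, so p-values measure the spread between these samples, which may be technical.

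Plants short of phosphate switch on a broad programme, controlled largely by the transcription factor PHR1, that scavenges phosphate with secreted phosphatases, replaces membrane phospholipids and lengthens root hairs, the single-cell outgrowths of the epidermis that take up phosphate. Cytokinins, perceived by membrane histidine kinases and relayed to response regulators in the nucleus, are known in Arabidopsis for lowering many transcripts of that programme in roots. trans-Zeatin and cis-zeatin are the same molecule apart from the geometry of the double bond in the side chain, and in Arabidopsis the trans form is the stronger receptor ligand in binding assays. The genes described here are the exception among starvation-raised genes by construction, since the rule asked for a higher level under both isomers.

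Each library held 20839562 to 21871669 counted reads, and 19982 genes, all 29 members among them, had enough reads for testing. Summed CPM of 10 type-A response regulators, direct cytokinin targets, were 409 to 439 in untreated and 947 to 1029 in zeatin-treated roots at full phosphate, and 247 to 287 against 816 to 958 at low phosphate. Chlorophyll-binding and Rubisco markers of shoot tissue (5 genes) summed to 12.2 to 60.1 CPM in 5 groups and to 110 to 143 CPM under trans-zeatin in full phosphate; none of them was at 0 throughout. Endodermis markers (6 genes) summed to 448 to 463 CPM in untreated fed roots and to 221 to 277 CPM in zeatin-treated fed roots, where 4 fell under trans- and 5 under cis-zeatin; what part this has in the members' values was not tested. Of 7 cell division genes trans-zeatin in full phosphate lowered 7 and cis-zeatin 1, their sum being 108 to 127 CPM in untreated, 71.1 to 74.5 in trans-zeatin and 92.1 to 106 in cis-zeatin libraries. Of 6 xylem markers 1 rose under trans-zeatin and 4 under cis-zeatin (514 to 593, 554 to 590.0 and 636 to 733 CPM in the same order). Of 5 root tip markers trans-zeatin lowered 1 and cis-zeatin none, and of 2 phloem markers each isomer raised 1. Over all tested genes trans-zeatin in full phosphate raised 24.2% and lowered 25.3%, and cis-zeatin raised 12.7% and lowered 13.5%. By the reads discarded for undetermined bases the libraries fall into 3 sets, 1 with fed roots, untreated or given trans-zeatin (81544 to 85178 reads), 1 with cis-zeatin in full phosphate, untreated low phosphate and replicate 1 of trans-zeatin in low phosphate (22738 to 25354), and 1 with the other low-phosphate zeatin libraries (40794 to 58614). What these sets stand for is not given in the labels, which name no sequencing runs. Sets and groups cannot be told apart for starvation in untreated roots and for cis-zeatin against untreated roots in low phosphate, both used by the rule, nor for cis-zeatin against untreated roots and trans- against cis-zeatin in full phosphate. The same holds for trans-zeatin in full phosphate against untreated low phosphate. Cis-zeatin in full phosphate against untreated low phosphate lies within 1 set. For trans-zeatin in low phosphate 1 of 3 treated libraries shares the set of the untreated ones, and trans-zeatin against untreated roots in full phosphate lies within 1 set.

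In the groups that the rule used, members were higher in starved than in fed roots by 1.003 to 3.01 on the log2(CPM + 1) scale, with a median of 1.38. trans-Zeatin in low phosphate added 0.60 to 2.88 (median 1.17) and cis-zeatin added 0.59 to 3.12 (median 1.29), while the medians over all genes at the floor were -0.02 for starvation, -0.02 for trans-zeatin and -0.06 for cis-zeatin. These values chose the members and carry no test. Just inside the starvation threshold lay AT5G24570 (1.003) and ACS2 (1.008), and just outside it AT4G28350 (0.995) and AT1G28610 (0.994). The trans-zeatin threshold fell between RSH2 (0.604) and ACS2 (0.683) on the inner side and AT3G55720 (0.572) and AT4G28940 (0.564) on the outer side. For cis-zeatin the nearest inner genes were CEL3 (0.588) and EXPA1 (0.642), and the nearest outer genes AT4G22214 (0.549) and AT5G57400 (0.477). With a zeatin threshold of 1 in place of 0.58 the rule keeps 16 of the members, with a pseudocount of 5 it keeps 12, and with a starvation threshold of 0.58 it finds 79 genes.

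**Figure D1:**
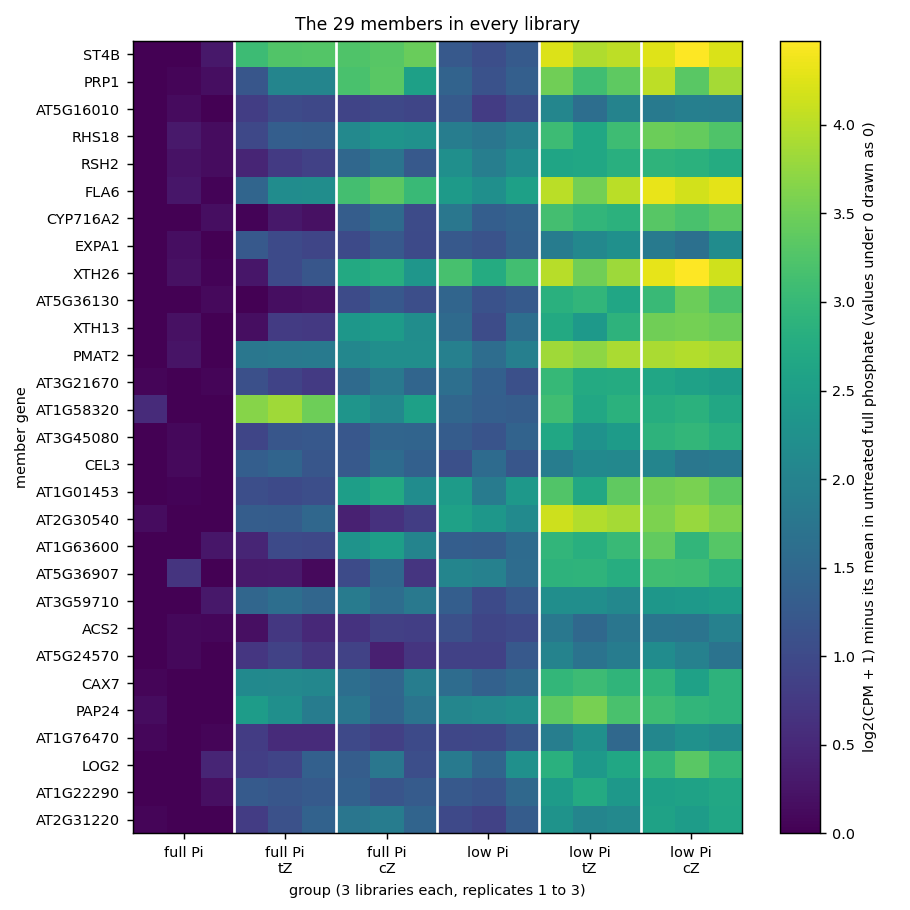
Level of each of the 29 members in each of the 18 libraries, as log2(CPM + 1) minus the mean of the 3 untreated full-phosphate libraries (colour; values under 0 drawn as 0). Rows are ordered by mean CPM over all libraries and white lines part the 6 groups. By group mean all 29 rows are darkest in untreated full phosphate, and the brightest group is cis-zeatin in low phosphate for 21 members, trans-zeatin in low phosphate for 7 and trans-zeatin in full phosphate for AT1G58320.

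The zeatin-treated roots of full phosphate did not enter the rule, and there the members were also higher than in untreated roots. trans-Zeatin raised 26 of 29 members and cis-zeatin raised all 29 (edgeR's quasi-likelihood test, adjusted p under 0.05 over all tested genes). Over all 19982 tested genes trans-zeatin called 24.2% higher and 25.3% lower, and cis-zeatin 12.7% higher and 13.5% lower. The count of lower members was 0 in both comparisons, and it was also 0 at an unadjusted p under 0.05 and by DESeq2. Both comparisons share the untreated full-phosphate libraries with the rule, which asked for low values there. The median change of the members was 1.38 on the log2 scale under trans-zeatin and 2.32 under cis-zeatin, beside -0.005 and -0.03 for all tested genes; 22 and 27 members respectively rose at least 2-fold. The same comparisons over the 549 tested starvation-raised genes, picked with the same control libraries, gave 125 higher and 192 lower under trans-zeatin, and 216 higher and 104 lower under cis-zeatin.

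Across the groups, untreated full phosphate had the lowest mean for all 29 members. Every trans-zeatin library of full phosphate lay above every untreated one for 25 members, and every cis-zeatin library did so for 29. The rule asked for low values in those untreated libraries, which favours both the lowest mean and this separation. Zeatin alone, without starvation, brought some members above the starved level. For 10 members (ST4B, PRP1, RHS18, FLA6, XTH13, PMAT2, AT1G58320, AT1G63600, AT3G59710 and AT2G31220) every cis-zeatin library of full phosphate exceeded every untreated low-phosphate library, and for 5 (RSH2, AT2G30540, AT5G36907, ACS2 and PAP24) every one lay under them. With trans-zeatin in full phosphate 4 members (ST4B, AT1G58320, AT3G59710 and CAX7) lay wholly above untreated low phosphate and 14 wholly under it. These counts were made for the members alone, so they do not show whether the members differ from other genes. In the trans-zeatin comparison the sets by discarded reads and the groups cannot be told apart, and the cis-zeatin comparison lies within 1 set.

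**Figure D2:**
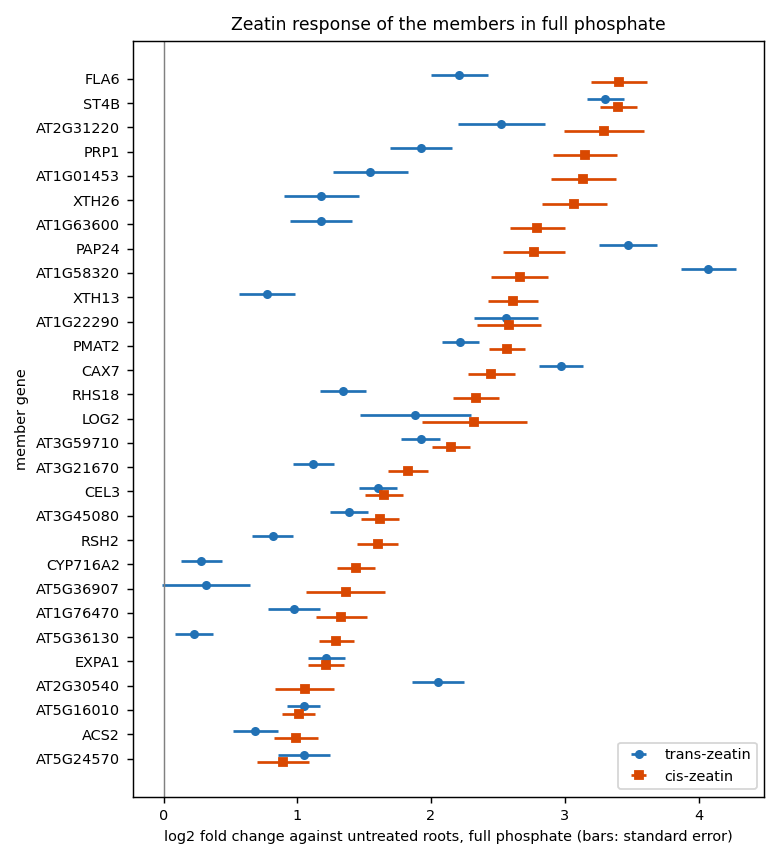
Response of each member to trans-zeatin (circles) and cis-zeatin (squares) in full phosphate, as log2 fold change against untreated roots from edgeR with its standard error (n = 3 libraries per group). All 29 points lie right of 0 for both isomers, from 0.23 to 4.07 for trans-zeatin and from 0.90 to 3.40 for cis-zeatin.

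Genes of the cell wall and the root hair formed the group with the widest gap between isomers in full phosphate (median trans over cis log2 -1.19). The 9 members here are PRP1, RHS18, RSH2, FLA6, XTH26, XTH13, EXPA1, CEL3 and AT1G01453, grouped after the members were known. All 9 rose under each isomer in full phosphate, with a median log2 change of 1.34 under trans-zeatin and 2.61 under cis-zeatin. At full phosphate 7 of the 9 were lower under trans- than under cis-zeatin by the edgeR test, in a comparison that called 20.7% of all tested genes higher and 20.5% lower under trans-zeatin. Trans over cis in full phosphate 6 of 7 cell division genes (median -0.49) and 2 of 6 xylem markers (median -0.17) were lower as well, and their part in the wall members' values was not tested. Less RNA per cell and fewer cells of a type cannot be told apart in these whole-root libraries.

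PRP1 (AT1G54970, also named RHS7; chromosome 1, 20504901 to 20506504, plus strand), a proline-rich wall protein of root hairs, stood at 26.1, 31.9 and 34.4 CPM in untreated, 71.5, 128 and 128 in trans-zeatin and 287, 316 and 184 in cis-zeatin libraries of full phosphate. In low phosphate it was at 83.9, 68.02 and 79.3 CPM untreated, 359, 271 and 324 with trans-zeatin and 517, 315 and 459 with cis-zeatin. The fed roots given cis-zeatin thus lay clear of the untreated starved roots, and those given trans-zeatin overlapped them. PRP1 rose by 3.15 ± 0.24 under cis-zeatin (log2 ± standard error, adjusted p = 1.94e-09, n = 3 per group, as for all such values) and by 1.92 ± 0.23 under trans-zeatin (adjusted p = 7.89e-07) in full phosphate. The direct comparison of isomers gave -1.23 ± 0.22 (trans over cis, adjusted p = 1.60e-04).

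RHS18 (AT5G22410, root hair specific 18; chromosome 5, 7426310 to 7427964, plus strand), a peroxidase-type gene, had 8.87, 15.9 and 14.1 CPM in untreated fed roots, 25.7, 33.3 and 33.2 with trans-zeatin and 57.6, 66.4 and 64.00 with cis-zeatin. The starved libraries held 49.8, 45.2 and 51.5 CPM untreated, 113, 84.8 and 115 with trans-zeatin and 150.3, 144 and 128 with cis-zeatin. No 2 of the 6 groups overlapped, a separation that the rule favours for the groups it used. Fed roots with trans-zeatin lay under untreated starved roots, and fed roots with cis-zeatin above them. Its trans over cis difference in full phosphate was -0.99 ± 0.16 (adjusted p = 4.42e-05). RSH2 (AT1G12950, root hair specific 2) behaved differently in 1 respect, since starvation alone took it to 76.1, 60.5 and 73.01 CPM, above all zeatin-treated fed roots (21.8, 26.8 and 29.03 with trans-zeatin and 45.4, 53.3 and 38.00 with cis-zeatin, from 11.8, 18.05 and 17.2 untreated). It rose by 1.60 ± 0.15 under cis-zeatin and by 0.82 ± 0.15 under trans-zeatin (adjusted p = 4.70e-08 and 1.63e-04).

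Promoters of PRP1 and RHS18 are shown because both hold a match to the root hair element, a motif known from root-hair genes of Arabidopsis, printed in capitals. Each is the 250 bases upstream of the annotated gene start in RefSeq TAIR10.1, 5′ to 3′ on the plus strand, at chr1:20504651-20504900 for PRP1 and chr5:7426060-7426309 for RHS18.
PRP1: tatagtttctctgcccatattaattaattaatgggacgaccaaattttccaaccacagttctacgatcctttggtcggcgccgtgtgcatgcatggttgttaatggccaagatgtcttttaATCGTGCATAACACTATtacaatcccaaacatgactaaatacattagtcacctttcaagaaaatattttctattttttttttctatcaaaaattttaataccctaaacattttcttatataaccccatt
RHS18: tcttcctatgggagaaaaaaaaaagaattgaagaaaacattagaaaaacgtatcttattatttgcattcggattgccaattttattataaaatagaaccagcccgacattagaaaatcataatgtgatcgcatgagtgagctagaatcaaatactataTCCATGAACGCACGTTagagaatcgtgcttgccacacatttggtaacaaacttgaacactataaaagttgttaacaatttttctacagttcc
These were the 2 of 29 members (6.90%) with a match on either strand, against 0.817% of the 15786 such promoters of genes at the floor. Both genes are named root hair specific, and the motif is known from such genes. Name and motif may therefore not be independent, and the shares are given as a description. Neither match overlapped another motif searched. XTH26, XTH13, FLA6 and RSH2 held no such letters in this window.

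FLA6 (AT2G20520), a fasciclin-like arabinogalactan protein of the cell surface, went from 4.74, 7.74 and 6.47 CPM in untreated fed roots to 18.9, 31.4 and 31.8 with trans-zeatin and 62.1, 72.4 and 57.8 with cis-zeatin. Starved roots had 38.1, 32.6 and 41.2 CPM untreated, 116, 81.5 and 115 with trans-zeatin and 143, 129 and 141 with cis-zeatin. All 6 groups of FLA6 were apart from one another, which the rule favours for the groups it used. Its rises in full phosphate were 3.40 ± 0.21 under cis-zeatin and 2.21 ± 0.21 under trans-zeatin (adjusted p = 7.90e-11 and 2.84e-08).

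The xyloglucan endotransglucosylase/hydrolases XTH26 and XTH13 cut and rejoin the xyloglucan chains of the wall, and they showed the widest isomer gap of all members in full phosphate. XTH26 (AT4G28850) measured 2.11, 3.26 and 2.84 CPM untreated, 3.46, 6.47 and 7.50 with trans-zeatin and 23.4, 24.9 and 17.8 with cis-zeatin in fed roots. In starved roots XTH26 measured 32.2, 23.95 and 31.3, 58.02, 40.8 and 51.5 and 72.5, 80.8 and 64.9 CPM in the same order, and 3.01 was the largest starvation difference among members. All cis-zeatin values exceeded all trans-zeatin values at each phosphate level. XTH13 (AT5G57540) had 4.13, 5.74 and 4.84 CPM, 5.61, 9.004 and 8.86 and 29.2, 31.1 and 25.9 in fed roots, and 16.1, 11.03 and 17.1, 37.5, 30.2 and 42.4 and 65.4, 67.2 and 63.8 in starved roots, in the same order of treatments. Its cis-zeatin libraries also lay wholly above its trans-zeatin libraries at both levels. Trans over cis in full phosphate was -1.89 ± 0.22 for XTH26 and -1.84 ± 0.18 for XTH13 (adjusted p = 9.05e-07 and 9.18e-08).

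AT1G01453, annotated as a hydroxyproline-rich late embryogenesis abundant protein, was close in pattern, at 1.55, 1.68 and 1.58 CPM in untreated fed roots, 4.49, 4.22 and 4.46 with trans-zeatin and 13.9, 16.03 and 10.7 with cis-zeatin, and its isomer difference there was -1.59 ± 0.21 (adjusted p = 3.80e-06). EXPA1 and CEL3 did not pass the isomer test. EXPA1 (AT1G69530), an expansin that loosens walls, had 12.01, 13.9 and 11.1 CPM untreated, 30.6, 25.7 and 24.2 with trans-zeatin and 25.7, 30.6 and 25.7 with cis-zeatin in fed roots. The interval of its isomer difference ran from -0.26 to 0.27 (95%, log2). CEL3 (AT1G71380), an endo-glucanase of the cellulase type, had 4.13, 4.85 and 4.33, 12.7, 13.7 and 11.5 and 11.8, 15.02 and 13.03 CPM in the same groups, with an interval from -0.30 to 0.22.

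**Figure D3:**
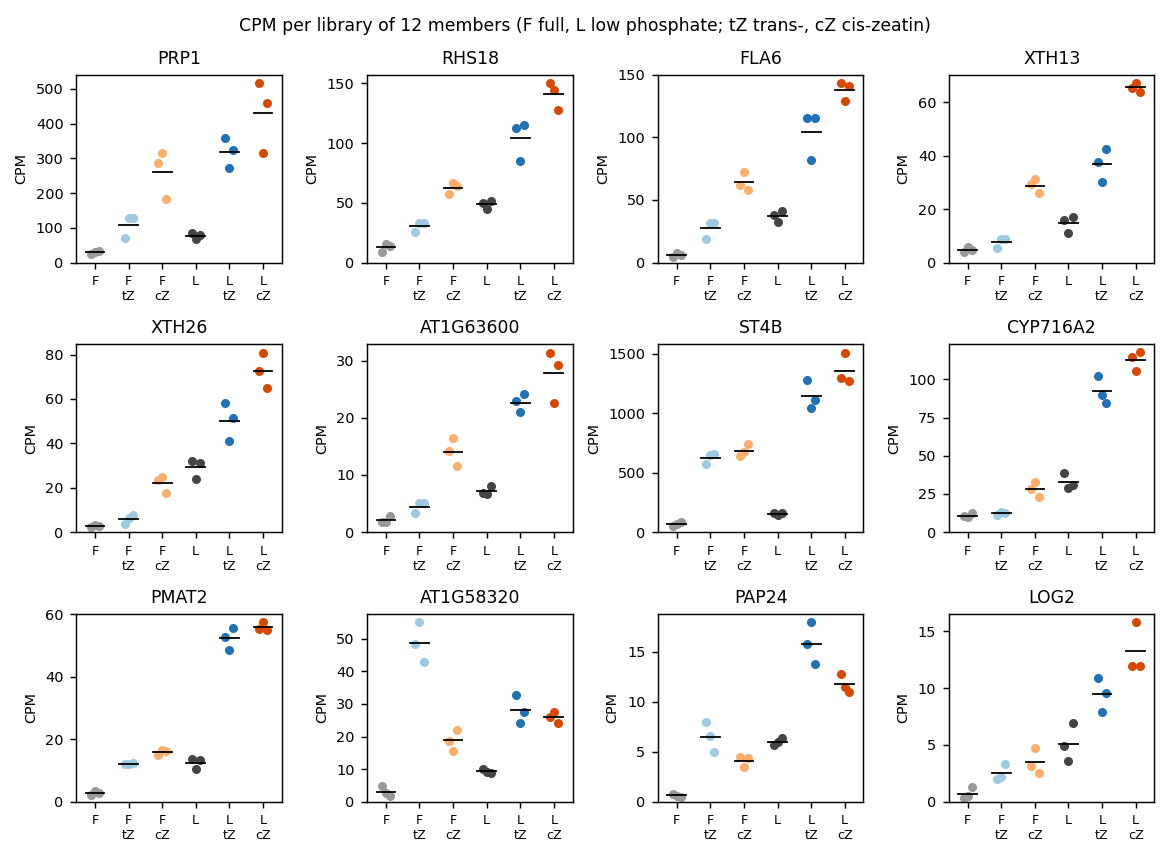
CPM of 12 members in each library by group (points; bars are group means; each axis starts at 0). The top row and the first 2 panels of the middle row show genes whose full-phosphate cis-zeatin libraries all lie above the trans-zeatin ones, such as XTH13 at 25.9 to 31.1 against 5.61 to 9.004 CPM, while AT1G58320 shows the opposite order, 42.7 to 55.1 CPM under trans-zeatin against 15.7 to 21.98 under cis-zeatin.

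Root hair genes at large gave a mixed picture under trans-zeatin. Of a list of 13 root hair genes, regulators and wall proteins with PRP1 among them, trans-zeatin in full phosphate raised 2 and lowered 3 (median log2 -0.27), and cis-zeatin raised 8 and lowered 2 (median 0.74). Trans over cis, 11 of the 13 were lower at full phosphate (median -1.03) and 1 at low phosphate (median -0.32), beside 20.5% and 1.42% of all tested genes. Without PRP1 the other 12 summed to 590 to 681 CPM in untreated fed roots, 462 to 662 with trans-zeatin and 1002 to 1424 with cis-zeatin, and in starved roots to 2555 to 3155, 1971 to 2712 and 2427 to 3481 CPM in the same order. The sum of these 12 in starved roots thus overlapped the untreated range under either isomer. Among 20 genes at the floor named root hair specific, a list drawn up after the members were known and holding 3 of them, trans-zeatin in full phosphate raised 7 and lowered 6, and cis-zeatin raised 12 and lowered 3. Of all tested genes trans-zeatin there raised 24.2% and lowered 25.3%, and cis-zeatin raised 12.7% and lowered 13.5%. Root hair markers moved with the isomer difference of the wall members in full phosphate, and their part in it was not tested.

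The small-molecule enzymes were 9 members, ST4B, AT3G45080, CYP716A2, AT5G36130, PMAT2, AT5G16010, AT3G59710, AT1G76470 and AT2G30540, again grouped with the members known. All 9 rose under cis-zeatin in full phosphate (median 1.44) and 7 rose under trans-zeatin (median over the 9 of 1.38). ST4B (AT1G13420) encodes a sulfotransferase, an enzyme that transfers sulfate to small molecules. It stood at 54.9, 66.6 and 81.9 CPM in untreated fed roots, 570.1, 652 and 657 with trans-zeatin and 643, 670.0 and 741 with cis-zeatin. Starved roots had 161, 141 and 163 CPM untreated, 1280.0, 1045 and 1113 with trans-zeatin and 1292, 1508 and 1272 with cis-zeatin. Zeatin at full phosphate therefore gave ST4B levels above starvation alone, with no overlap. The rises in full phosphate were 3.30 ± 0.14 under trans-zeatin and 3.40 ± 0.14 under cis-zeatin (adjusted p = 1.43e-13 and 3.04e-13). The isomers did not differ past the threshold for ST4B, with an interval of trans over cis from -0.35 to 0.17 in full and from -0.53 to -0.01 in low phosphate. ST4B also had the largest zeatin differences of all members in low phosphate, 2.88 with trans- and 3.12 with cis-zeatin on the log2(CPM + 1) scale of the rule.

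AT3G45080, whose annotated superfamily of P-loop nucleoside triphosphate hydrolases includes sulfotransferases, had 4.27, 4.90 and 4.47 CPM in untreated fed roots, 9.58, 11.7 and 12.1 with trans-zeatin and 11.9, 14.2 and 14.01 with cis-zeatin. Its levels in starved roots were 12.6, 11.4 and 13.8 untreated, 33.9, 25.8 and 29.3 with trans-zeatin and 40.02, 42.2 and 38.3 with cis-zeatin. Treated starved roots lay above all others, with cis-zeatin above trans-zeatin. The rule asked for a rise under each isomer there.

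CYP716A2 and AT5G36130 are annotated as cytochrome P450 genes, a superfamily of oxidising enzymes, and lie on the minus strand of chromosome 5 with 2251 bases between them (14209088 to 14209922 for AT5G36130 and 14212174 to 14213293 for CYP716A2). CYP716A2 (AT5G36140) measured 10.4, 9.70 and 12.2 CPM in untreated fed roots, 11.1, 13.3 and 12.4 with trans-zeatin and 28.2, 33.2 and 22.7 with cis-zeatin. In starved roots it measured 38.97, 28.8 and 30.6, 103, 89.5 and 84.6 and 115, 105 and 118 CPM in the same order. In fed roots the trans-zeatin libraries overlapped the untreated ones. In starved roots they lay well above, where the rule itself asked for a rise. Whether the trans-zeatin response of CYP716A2 differed between the phosphate levels was not tested. The change under trans-zeatin in full phosphate was 0.28 ± 0.15 (adjusted p = 0.129), and under cis-zeatin CYP716A2 rose by 1.44 ± 0.14 (adjusted p = 9.69e-08). With the 2 compared groups fitted alone the trans-zeatin change passed the threshold (0.28, adjusted p = 0.0349). AT5G36130 moved with CYP716A2, at 0.493 to 0.765 of its CPM in all 18 libraries, and gave 0.23 ± 0.14 under trans- and 1.29 ± 0.13 under cis-zeatin in full phosphate (adjusted p = 0.194 and 1.13e-07). How reads were split between these neighbours was not tested, so they may not count as separate cases.

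PMAT2 (AT3G29670), a malonyltransferase for phenolic glucosides, had 2.25, 3.45 and 2.70 CPM in untreated fed roots, 11.96, 12.2 and 12.5 with trans-zeatin and 14.9, 16.4 and 16.4 with cis-zeatin. In starved roots it had 13.6, 10.4 and 13.4 untreated, 52.8, 48.7 and 55.5 with trans-zeatin and 55.4, 57.5 and 55.1 with cis-zeatin. Starvation and trans-zeatin alone gave overlapping levels, and in starved roots each isomer took PMAT2 far above either. The rule asked for that rise in starved roots. Trans over cis in full phosphate was -0.35 ± 0.11 (adjusted p = 0.016), a call that was lost without trans-zeatin replicate 1 (adjusted p = 0.0608) or cis-zeatin replicate 2 (adjusted p = 0.0537).

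AT2G30540, a small protein of the thioredoxin superfamily, was 1 of 4 members higher under trans-zeatin in full phosphate. It had 1.45, 1.21 and 0.977 CPM untreated, 4.53, 4.46 and 5.21 with trans-zeatin and 1.95, 2.45 and 2.86 with cis-zeatin in fed roots, and 11.97, 10.4 and 8.75, 37.8, 33.3 and 31.3 and 25.6, 29.4 and 25.6 in starved roots. Its fed libraries stayed under all its starved ones. Trans over cis was 0.998 ± 0.17 in full phosphate (adjusted p = 1.01e-04). The steroid reductase-like AT5G16010 and the Rossmann-fold proteins AT3G59710 and AT1G76470 did not pass the isomer test at either phosphate level. AT5G16010 had isomer intervals from -0.22 to 0.29 in full and from -0.26 to 0.24 in low phosphate, and its fed roots went from 66.7, 76.1 and 65.6 CPM untreated to 123, 142 and 138 with trans-zeatin and 132, 137 and 134 with cis-zeatin. AT3G59710 rose by 1.92 ± 0.14 and 2.15 ± 0.14, and AT1G76470 by 0.97 ± 0.20 and 1.33 ± 0.19, under trans- and cis-zeatin respectively. A small nucleolar RNA gene overlaps AT3G59710, which makes its counts uncertain.

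The third group joins phosphate, hormone, transport and signalling genes, PAP24, LOG2, ACS2, CAX7, AT3G21670, AT1G63600, AT2G31220 and AT1G22290. All 8 rose under each isomer in full phosphate, with medians of 2.20 under trans-zeatin and 2.52 under cis-zeatin. PAP24 (AT4G24890) is a purple acid phosphatase, of the enzyme class that frees phosphate from organic compounds. Its fed roots had 0.797, 0.560 and 0.512 CPM untreated, 7.94, 6.61 and 4.97 with trans-zeatin and 4.47, 3.45 and 4.36 with cis-zeatin, and its starved roots 5.70, 5.96 and 6.38, 15.7, 17.9 and 13.7 and 12.8, 11.4 and 10.98. The trans-zeatin libraries lay above the cis-zeatin libraries at both phosphate levels. PAP24 rose by 3.47 ± 0.22 under trans-zeatin and by 2.77 ± 0.23 under cis-zeatin in full phosphate (adjusted p = 4.52e-11 and 8.50e-09), and trans over cis was 0.70 ± 0.16 (adjusted p = 0.0012). AT4G24880 overlaps PAP24 on the opposite strand, and no source used here says whether counting used strand, so reads of the pair may be mixed. Of a list of 10 phosphatases and scavenging genes that does not hold PAP24, trans-zeatin in full phosphate raised 2 and lowered 1, where 24.2% of all tested genes were higher and 25.3% lower. Cis-zeatin raised 3 of the 10 and lowered 1, beside 12.7% and 13.5% of all tested genes. Their summed level in starved roots was 2117 to 2348 CPM untreated, 977 to 1055 with trans-zeatin and 1180 to 1208 with cis-zeatin.

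The promoters of PAP24, AT3G59710 and AT2G31220 are shown because they are the 3 members with a match to P1BS (GNATATNC), the palindromic motif bound by PHR1, in capitals. Each is the 250 bases upstream in RefSeq TAIR10.1, 5′ to 3′ on the strand of the gene, at chr4:12814457-12814706 (minus) for PAP24, chr3:22057157-22057406 (minus) for AT3G59710 and chr2:13302416-13302665 (plus) for AT2G31220.
PAP24: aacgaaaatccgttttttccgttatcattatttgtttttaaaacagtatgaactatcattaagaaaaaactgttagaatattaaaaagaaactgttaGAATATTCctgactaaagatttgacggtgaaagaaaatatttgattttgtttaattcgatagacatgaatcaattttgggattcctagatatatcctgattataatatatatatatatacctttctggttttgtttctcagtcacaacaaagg
AT3G59710: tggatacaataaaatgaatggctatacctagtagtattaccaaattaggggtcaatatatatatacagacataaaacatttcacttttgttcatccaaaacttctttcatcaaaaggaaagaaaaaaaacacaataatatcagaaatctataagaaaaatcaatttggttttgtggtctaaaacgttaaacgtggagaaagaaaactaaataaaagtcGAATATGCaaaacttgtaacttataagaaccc
AT2G31220: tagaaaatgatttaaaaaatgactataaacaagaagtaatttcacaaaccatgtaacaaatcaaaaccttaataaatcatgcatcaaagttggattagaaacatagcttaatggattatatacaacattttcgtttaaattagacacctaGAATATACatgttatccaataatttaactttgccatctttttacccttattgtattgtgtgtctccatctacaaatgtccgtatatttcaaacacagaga
The 3 of 29 are 10.3% of members, beside 5.64% of the 15786 promoters of genes at the floor, and no match overlapped another motif searched. A motif of the cytokinin response regulators, searched as AAGATNTT on both strands and in no other form, was held by 3 members (AT1G58320, PMAT2 and AT3G45080), 10.3% against 11.6%. TTGAC, the core bound by WRKY factors, was in 12 members (41.4% against 45.6%), and the G-box CACGTG in 2 (6.90% against 7.41%). A match of letters is not a binding site.

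2 members belong to hormone pathways. LOG2 (AT2G35990, LONELY GUY 2) belongs to the enzymes that release active cytokinin bases from their nucleotides. Its fed roots had 0.328, 0.513 and 1.30 CPM untreated, 1.96, 2.16 and 3.33 with trans-zeatin and 3.14, 4.70 and 2.53 with cis-zeatin, and its starved roots 4.90, 3.55 and 6.90, 10.9, 7.88 and 9.57 and 11.9, 15.8 and 11.97 CPM. Levels were low and the replicates wide. Treated and untreated libraries did not overlap at either phosphate level, a separation that the choice of members by the rule favours. LOG2 rose by 1.88 ± 0.42 under trans- and 2.32 ± 0.39 under cis-zeatin (adjusted p = 8.02e-04 and 1.04e-04), with an isomer interval from -1.10 to 0.21. ACS2 (AT1G01480) makes the ethylene precursor ACC. ACS2 went from 3.05, 3.87 and 3.81 CPM to 4.16, 6.52 and 5.49 with trans-zeatin and 6.18, 7.20 and 7.08 with cis-zeatin in fed roots, rises of 0.69 ± 0.17 and 0.99 ± 0.16 (adjusted p = 0.00194 and 7.39e-05). Its isomer difference of -0.31 ± 0.15 did not pass (adjusted p = 0.121) but did without trans-zeatin replicate 2 (-0.47, adjusted p = 0.0318). Of 11 listed ethylene genes with ACS2 among them, 4 rose and 3 fell under each isomer in full phosphate. Among all tested genes 24.2% rose and 25.3% fell under trans-zeatin, and 12.7% rose and 13.5% fell under cis-zeatin.

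Transport was represented by CAX7 and AT3G21670. CAX7 (AT5G17860), a cation/calcium exchanger, had 1.17, 0.979 and 1.07 CPM in untreated fed roots, 8.08, 7.93 and 7.74 with trans-zeatin and 5.37, 4.80 and 6.75 with cis-zeatin. Starved roots had 5.18, 4.40 and 5.01 CPM of CAX7 untreated, 15.2, 16.3 and 14.8 with trans-zeatin and 14.8, 11.2 and 14.4 with cis-zeatin. trans-Zeatin in fed roots exceeded starvation alone. In starved roots its lowest library (14.81 CPM) was barely above the highest cis-zeatin library (14.79 CPM). The edgeR test did not call that isomer difference (0.17 ± 0.11, adjusted p = 0.426). In full phosphate CAX7 rose by 2.97 ± 0.17 under trans-zeatin, and trans over cis was 0.52 ± 0.13 (adjusted p = 1.03e-11 and 0.00275). AT3G21670, a major facilitator protein of the family that holds nitrate and peptide transporters, had 6.43, 5.50 and 6.42 CPM untreated, 14.2, 12.2 and 10.97 with trans-zeatin and 19.8, 23.9 and 18.6 with cis-zeatin in fed roots, and 20.97, 17.5 and 14.1, 55.6, 46.4 and 46.8 and 43.5, 41.1 and 39.1 in starved roots. The order of the isomers was opposite at the 2 phosphate levels, cis above trans in fed roots and trans above cis in starved roots, without overlap in either. The test called the first (-0.71 ± 0.14, adjusted p = 2.97e-04) and not the second (0.24 ± 0.12, adjusted p = 0.273).

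Signalling genes among the members were few. AT1G63600, related to receptor-like kinases, had 1.78, 1.82 and 2.74 CPM in untreated fed roots, 3.27, 5.16 and 5.02 with trans-zeatin and 14.2, 16.5 and 11.6 with cis-zeatin, and its trans over cis value there was -1.62 ± 0.18 (adjusted p = 7.00e-07). AT2G31220 is the only member that the annotation words as a DNA-binding protein, of the basic helix-loop-helix kind. Its counts were the smallest of the set, down to 6 reads in a library. Fed roots had 0.422, 0.373 and 0.279 CPM untreated, 1.36, 1.92 and 2.58 with trans-zeatin and 3.57, 3.98 and 2.67 with cis-zeatin, and none of these groups overlapped. It rose by 2.52 ± 0.32 and 3.29 ± 0.30 (adjusted p = 1.70e-06 and 2.29e-08), and the isomer difference of -0.77 ± 0.22 (adjusted p = 0.00739) was lost without trans-zeatin replicate 1 (adjusted p = 0.0587). The 14-3-3 protein gene AT1G22290 had 0.328, 0.326 and 0.605 CPM untreated, 2.38, 2.25 and 2.39 with trans-zeatin and 2.66, 2.21 and 2.44 with cis-zeatin in fed roots, where the isomers overlapped and their interval ran from -0.38 to 0.34.

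AT1G58320, a PLAC8-domain protein, was the strongest responder to trans-zeatin in fed roots and the member whose order of groups differed most. It had 4.74, 2.80 and 1.77 CPM untreated, 48.5, 55.1 and 42.7 with trans-zeatin and 18.7, 15.7 and 21.98 with cis-zeatin in full phosphate. In low phosphate it had 9.94, 9.04 and 8.84, 32.8, 24.1 and 27.6 and 25.98, 27.5 and 24.2 CPM. Every trans-zeatin library of full phosphate lay above every other library of the study, and in starved roots the isomers overlapped. Trans over cis was 1.41 ± 0.16 in full phosphate (adjusted p = 1.13e-06) and its interval in low phosphate ran from -0.24 to 0.44. Of the 5 shoot-tissue markers 4 were tested, and all 4 were higher trans over cis in full phosphate (median 1.74); their part in the value of AT1G58320 was not tested. The last members, AT5G36907 and AT5G24570, are annotated as uncharacterized proteins. AT5G36907 had 0.938, 3.78 and 1.91 CPM in untreated fed roots, of which replicate 2 was the highest, and its trans-zeatin change of 0.32 ± 0.33 (adjusted p = 0.452) became 0.95 (adjusted p = 0.0211) without that library. Its isomer difference in full phosphate, -1.05 ± 0.29 (adjusted p = 0.00611), was lost without cis-zeatin replicate 2 (adjusted p = 0.0581). AT5G24570, which overlaps AT5G24575 on the same strand and is therefore uncertain, rose by 1.05 ± 0.19 under trans- and 0.90 ± 0.19 under cis-zeatin.

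The 2 isomers were compared at the same dose and time at each phosphate level, 1 pair of groups per level. In full phosphate 18 of 29 members differed, 14 lower and 4 higher under trans-zeatin (median of the 29 at -0.35), against the 20.5% lower and 20.7% higher of all tested genes given above. The 4 higher members were AT1G58320, AT2G30540, PAP24 and CAX7. Over the 549 tested starvation-raised genes 279 were lower and 56 higher, so a lower level under trans-zeatin was also common outside the set. For 15 members every cis-zeatin library of full phosphate lay above every trans-zeatin library, and for 4 the order was the reverse. This separation was counted for the members alone, so it does not show whether they differ from other genes. The libraries of the 2 isomers in full phosphate differ wholly in the number of discarded reads, and that grouping and the isomer cannot be told apart.

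In low phosphate 3 members differed, all lower under trans-zeatin, in a comparison that called 1.42% of all tested genes lower and 1.35% higher. They were XTH13 (-0.86 ± 0.15, adjusted p = 0.00346), AT5G36130 (-0.46 ± 0.10, adjusted p = 0.0169) and AT3G45080 (-0.46 ± 0.11, adjusted p = 0.0254). No member was called higher under trans-zeatin by edgeR or by DESeq2, and 2 members, AT2G30540 and PAP24, were higher at an unadjusted p under 0.05, beside 15 that were lower. Both groups of this comparison entered the rule, which left out genes raised by 1 isomer alone in low phosphate. The choice of members thus limits the difference between the isomers there, and neither the small number of calls nor the small size of the differences is a result about the members. XTH13 stayed called with any library left out. The count fell to 1 without trans-zeatin replicate 3, where AT5G36130 had an adjusted p of 0.0687 and AT3G45080 of 0.0585, and without cis-zeatin replicate 2, where they had 0.0765 and 0.0712; AT3G45080 was also lost without trans-zeatin replicate 2 (adjusted p = 0.114). The 3 calls held without trans-zeatin replicate 1, the only library of the 6 with discarded reads in the lowest range. With the 2 groups fitted alone XTH13 stayed called, and AT5G36130 (adjusted p = 0.190) and AT3G45080 (adjusted p = 0.197) did not. The 26 members not called had isomer differences from -0.56 ± 0.17 for XTH26, with an interval from -0.92 to -0.20, to 0.40 ± 0.13 for PAP24, with an interval from 0.13 to 0.67, and these intervals too are of genes chosen on the same groups.

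The isomer difference was not of the same size at both phosphate levels for 11 members. The test, low minus full phosphate of the trans over cis log2 value, was added after the data were seen, and called 9 members higher and 2 lower against 8.61% and 9.74% of all tested genes. The rule limited the low-phosphate gap and not the full-phosphate gap, so a smaller gap in starved roots is favoured by the choice of members, and the calls are given as a description. For the 9 (XTH26, AT1G63600, AT1G01453, XTH13, AT3G21670, CYP716A2, FLA6, RSH2 and AT5G36130) trans-zeatin lay further under cis-zeatin in fed than in starved roots, or, for AT3G21670, changed side. For AT1G58320 and AT2G30540 trans-zeatin lay further above cis-zeatin in fed roots. XTH26 had the largest positive value, 1.33 ± 0.28 (adjusted p = 0.00257), and AT1G58320 the largest negative one, -1.31 ± 0.23 (adjusted p = 6.92e-04). Over the 549 tested starvation-raised genes the counts were 110 higher and 53 lower. The calls of XTH26, AT1G63600, AT1G01453, XTH13, AT3G21670, CYP716A2 and AT1G58320 held with any library left out. AT5G36130 was lost without trans-zeatin replicate 1 of full phosphate (adjusted p = 0.0546). RSH2 was lost without that library, cis-zeatin replicates 1 or 2 of full phosphate, trans-zeatin replicate 3 or cis-zeatin replicate 3 of low phosphate (adjusted p from 0.0587 to 0.103). FLA6 was lost without 6 libraries in turn, trans-zeatin replicate 1 and cis-zeatin replicates 1 and 2 of full phosphate and trans-zeatin replicates 1 and 3 and cis-zeatin replicate 2 of low phosphate (0.0560 to 0.0979). AT2G30540 was lost without trans-zeatin replicate 3 or cis-zeatin replicates 1 or 2 of full phosphate or trans-zeatin replicate 3 of low phosphate (0.0507 to 0.0980). This test holds the full-phosphate isomer comparison, and so the grouping by discarded reads and the isomer cannot be told apart in it either.

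**Figure D4:**
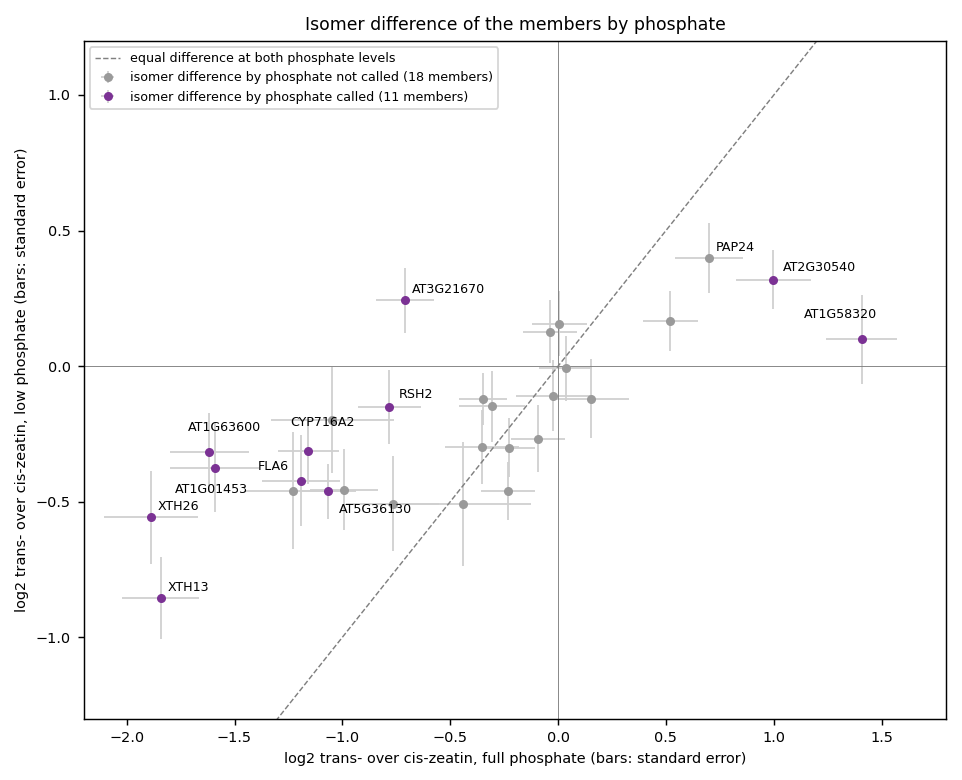
Isomer difference of the 29 members, trans- over cis-zeatin, in full phosphate (horizontal) and in low phosphate (vertical), as log2 from edgeR with standard errors (n = 3 libraries per group). The 11 coloured members are those called for a difference of unlike size at the 2 phosphate levels, which the choice of members favours; most lie left of the vertical line at 0 and above the dashed line of equal difference, such as XTH26 at -1.89 and -0.56, while AT1G58320 lies far right at 1.41 and 0.10.

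No annotation word searched was held by more than 3 members, though some were more frequent than among genes at the floor. The word xyloglucan occurs in the annotation of 2 members, 6.90% against 0.208% of the 15841 genes at the floor, and cytochrome P450 in 2, the neighbouring pair, 6.90% against 0.776%. Root hair specific occurs in 3 (10.3% against 0.126%), a word looked for after the members were known. Extensin or proline-rich occurs in 2 (6.90% against 0.859%), PRP1 and AT1G01453, the latter only as part of the word hydroxyproline-rich. Expansin occurs in 1 (3.45% against 0.107%). A kinase, a transcription factor and a transporter wording occur in 1 member each (3.45%), against 6.31%, 5.28% and 3.06% of genes at the floor. Members lie on all chromosomes, 11 on chromosome 1, 4 on 2, 4 on 3, 2 on 4 and 8 on 5. ACS2 and AT1G01453 are 7617 bases apart on chromosome 1, on opposite strands. The lowest count of a member in any library was 6 and the highest 32992, and 14 members had under 50 reads in at least 1 library.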

How the data were processed

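The authors deposited a table of read counts per gene for 18 libraries, 3 in each of 6 groups. Its name speaks of normalized values, but they are whole numbers whose totals differ between libraries, so they were analysed as raw counts. CASAVA 1.4, FastQC, HISAT2, HTSeq and edgeR are named in the submitters' processing notes; the genome build and the strandedness are not given in the sources used here. A deposited sequencing report lists reads per library.

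The members and the gene lists were chosen with earlier results of these data known. CPM is the count times 1000000 over the column total, not corrected for transcript length, so levels are compared between groups and not between genes. Genes kept by filterByExpr (minimum count 10), 19982 in all, were given TMM factors (0.953 to 1.063) and entered 1 model of 6 group means with edgeR 4.0.16 (glmQLFit, glmQLFTest; limma 3.58.1 loaded; R 4.3.3; biological coefficient of variation 8.48%). Adjusted p is Benjamini-Hochberg over all tested genes, threshold 0.05, and intervals are 95%. The same steps were tested on simulated data. The members named with numbers include those with the highest CPM, the largest differences and list membership; all 29 are given. Alternatives were DESeq2 1.42.0, median-of-ratios scaling, no filter or a minimum of 50, the compared groups alone and a replicate block. Others were a term for the set of libraries with 40794 to 58614 reads discarded for undetermined bases, and each library left out. Replicates differed beyond sampling noise in every pair (chi-square over degrees of freedom 2.74 to 30.7). RefSeq TAIR10.1 gave names, positions and promoters of all 29 members.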

Additional observations from a re-analysis of the deposited data

Results flagged for a closer look

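The difference between the isomers was not the same at both phosphate levels for 11 members, by edgeR's test of the difference itself (low minus full phosphate of the trans over cis log2 value, 3 libraries per group, adjusted over all tested genes). Higher values were found for XTH26 (1.33, adjusted p = 0.00257), AT1G63600 (1.30, adjusted p = 0.000836), AT1G01453 (1.22, adjusted p = 0.00347), XTH13 (0.99, adjusted p = 0.00593), AT3G21670 (0.95, adjusted p = 0.00128), CYP716A2 (0.84, adjusted p = 0.00392), FLA6 (0.77, adjusted p = 0.0330), RSH2 (0.63, adjusted p = 0.0308) and AT5G36130 (0.60, adjusted p = 0.0143). Lower values were found for AT1G58320 (-1.31, adjusted p = 0.000692) and AT2G30540 (-0.68, adjusted p = 0.0246). The comparison was added after the data were seen, and the rule limited the low-phosphate isomer gap, so a smaller gap there is favoured by the choice of members. In full phosphate the isomers' libraries differ wholly in how many reads were discarded over undetermined bases, and that grouping and the isomer cannot be told apart.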

How the results depend on the processing

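The size of the set depends on the thresholds. With a pseudocount of 5 the rule kept 12 genes, with a zeatin threshold of 1 it kept 16, and with a starvation threshold of 0.58 it found 79. Leaving out each library in turn gave 26 to 39 genes, and 21 members were kept under every one; ACS2, RSH2, EXPA1, CEL3, AT1G76470, AT2G31220, AT5G16010 and AT5G24570 were lost under at least 1. With each library left out in turn, the members called were 26 to 27 for trans-zeatin and 29 for cis-zeatin against untreated fed roots, 16 to 19 and 1 to 3 between isomers in full and low phosphate, and 8 to 14 for the isomer difference by phosphate. With the compared groups fitted alone, and so with fewer samples behind the estimate of spread, the low-phosphate isomer count was 1 (XTH13). The cause of this and of the other changes was not tested. Replicate numbers did not pair the samples (correlations of deviations -0.09 to 0.08), and with a replicate block the counts were 26, 29, 18, 3 and 11, as without it. DESeq2 gave 26, 29, 18, 3 and 10. A term for the set of libraries with 40794 to 58614 discarded reads was fitted for the last 2. The counts were then 3 and 10, the call of FLA6 being lost (adjusted p = 0.0714). That term leaves the full-phosphate isomer comparison unadjusted, since none of its libraries are in that set. No member changed direction among its calls under any of these settings. Precision is limited for the 14 members with under 50 reads in at least 1 library.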
